A study of Mus musculus with 4 samples.

Results

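The genes described here are 10 members of the RB pathway, chosen by symbol: the pocket proteins *Rb1*, *Rbl1* and *Rbl2*, the INK4 inhibitor genes *Cdkn2a* and *Cdkn2b*, the G1 cyclins *Ccnd1*, *Ccnd2* and *Ccne1*, and the kinases *Cdk4* and *Cdk6*. All 10 were among the 23924 genes of the expression matrix, and all 10 passed the filter on low values that left 11524 genes for testing. RNA-seq of polyadenylated RNA was performed on male tail tip fibroblasts (TTFs) from littermates of the mouse line C57BL/6J-TgBAC8-2087. There were 2 libraries of wildtype (+/+, WT) cells and 2 of transgenic (Tg2087/+, TG) cells, and the transgene is *Xic* sequence inserted at an autosomal site, with *Xist* under its native promoter. Both genotypes were immortalized with the large T cDNA of Simian virus 40, and the study describes the cells as tetraploid. The age of the mice, and the number of animals and of immortalized lines behind the 2 libraries of a genotype, are not given in the sources used here. A difference between genotypes and one between immortalized lines therefore cannot be told apart, and the p-values measure only the spread between these libraries, which may be technical.

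RB, the product of *Rb1*, and its relatives p107 (*Rbl1*) and p130 (*Rbl2*) bind E2F transcription factors and hold back the genes of S phase entry. D-type cyclins with CDK4 or CDK6, and then cyclin E with CDK2, phosphorylate the pocket proteins and release E2F, while the INK4 proteins p16 (from *Cdkn2a*) and p15 (from *Cdkn2b*) block CDK4 and CDK6. SV40 large T binds the pocket proteins and p53, which is known to bypass this brake at the protein level. *Cdkn2a* also encodes Arf, which restrains MDM2 and so stabilizes p53, and both INK4 genes are known to accumulate in cultured fibroblasts.

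The read totals implied by the FPKM values of the 4 libraries ran from 9465712 to 14639946, and WT 2 was 1.55 times as deep as WT 1. *Xist*, the gene that the transgene carries, was at 0 and 0.108 FPKM in WT and at 2.31 and 2.28 FPKM in TG, as the labels require. FPKM is the number of fragments per kilobase of gene, scaled to library depth, so levels can be compared between genes. Of 10 fibroblast markers, 8 were above 0 in all 4 libraries, with *Vim* and *Thy1* high, whereas *Lum* was at 0 throughout, *Dcn* reached no more than 0.878 FPKM and *Pdgfra* no more than 1.13 FPKM. The fibroblast markers summed to 4624 to 4910 FPKM in WT and 3944 to 4223 FPKM in TG. Within this sum *Vim* was higher in both TG libraries (2255 and 2147 FPKM for WT, 2547 and 2349 FPKM for TG). *Col1a1* was lower (867 and 789 FPKM for WT, 407 and 539 FPKM for TG), as were *Col1a2*, *Col3a1*, *Fn1*, *Pdgfrb* and *Thy1*. Like *Vim*, the low markers *Pdgfra* and *Dcn* were higher in both TG libraries. The part of these shifts in the results was not tested. The defining markers of myoblasts (4 of 4) and most of those of immune cells (5 of 6) were at 0 in every library, as were *Krt5* and *Krt14* of keratinocytes. These are bulk libraries, so fewer cells that express a gene and less RNA per cell cannot be told apart.

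The members spanned a wide range of levels. In WT, *Cdkn2a* (678 ± 190 FPKM, SD, n = 2) was highest, followed by *Cdk4*, *Cdkn2b*, *Ccnd2*, *Ccnd1*, *Ccne1* and *Rbl1*, each with its libraries clear of the next gene's. *Rbl2*, *Rb1* and *Cdk6* closed the order at 2.94, 2.89 and 2.51 FPKM, with overlapping libraries. In TG, *Cdkn2a* and *Cdk4* overlapped at the top, *Ccnd1* stood above *Ccnd2*, and *Cdk6* stood above *Rbl2* and *Rb1*. By mean FPKM over all libraries, *Cdkn2a* ranked 74 and *Cdk4* ranked 106 of the 11524 tested genes, both among the most abundant messages of these cells. The *Cdkn2a* value pools the messages of p16 and Arf, so its rank cannot be assigned to the INK4 message alone.

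**Figure D1:**
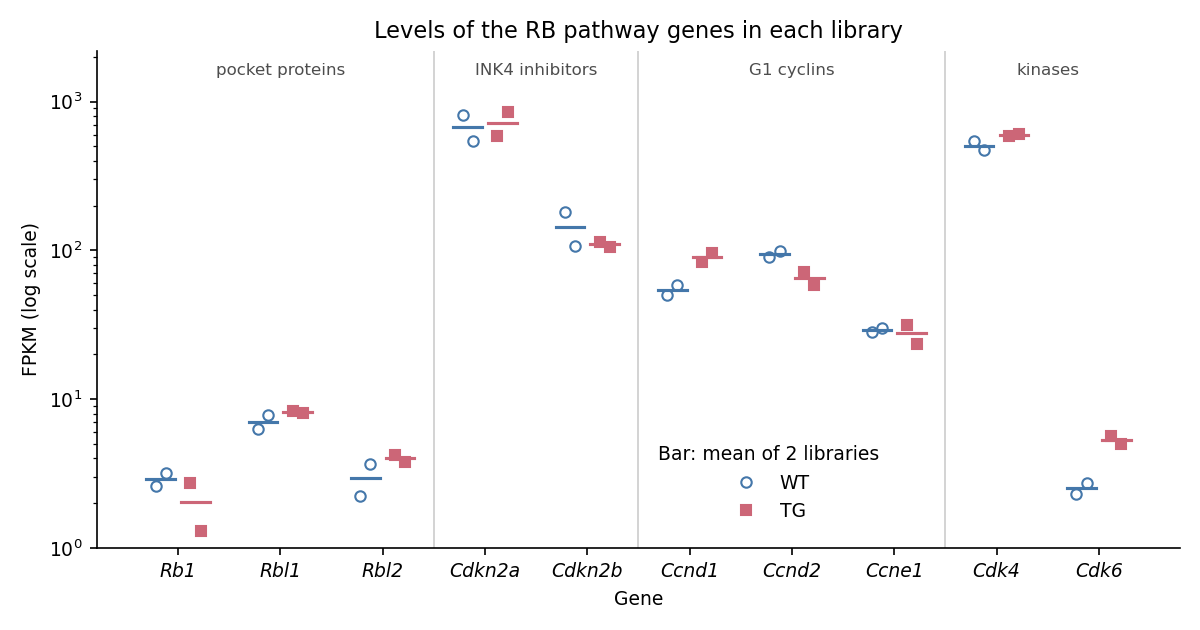
FPKM of the 10 members on a log10 axis, with 1 point per library and bars at the mean of the 2 libraries of WT and of TG. *Cdkn2a* and *Cdk4* sat at the top, between 471 and 848 FPKM, the pocket proteins and *Cdk6* sat below 10 FPKM, and the points of the genotypes lay apart for 6 of 10 members (*Ccnd1*, *Ccnd2*, *Cdk6*, *Cdk4*, *Rbl1* and *Rbl2*), against 50.5% of all tested genes.

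Whether the transgene went with a different level of each member was tested with limma on log2(FPKM + 0.5), with Benjamini-Hochberg adjustment over all 11524 genes. A gene was called when its adjusted p was under 0.01 and its log2 fold change at least 1 in size, the thresholds of the study. By limma, 0 of 10 members were called, against 1.08% of all tested genes, and 0 of 10 had an adjusted p under 0.05, against 4.13%. At an unadjusted p under 0.05, 3 of 10 members passed (*Ccnd1*, *Ccnd2* and *Cdk6*), against 19.6% of all genes. The whole reads behind the FPKM values could be worked out, and limma's voom method on those reads called 1 member, *Cdk6*, against 2.39% of genes. That member was higher in TG (1.08% of genes were called higher) and 0 members were lower (1.31% of genes were called lower). Voom gave an adjusted p under 0.05 for 3 members, against 7.91% of genes. Of these *Cdk6* and *Ccnd1* were higher, against 3.51% of genes, and *Ccnd2* was lower, against 4.39%. The 2 TG libraries lay beyond the 2 WT libraries for 6 of 10 members, where 50.5% of all tested genes did so. They were higher in TG for 5 members, against 30.2% of genes, and lower for 1, against 20.3%, so this count stood near its background. The median log2 fold change was 0.15 over the members and 0.07 over all tested genes.

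**Figure D2:**
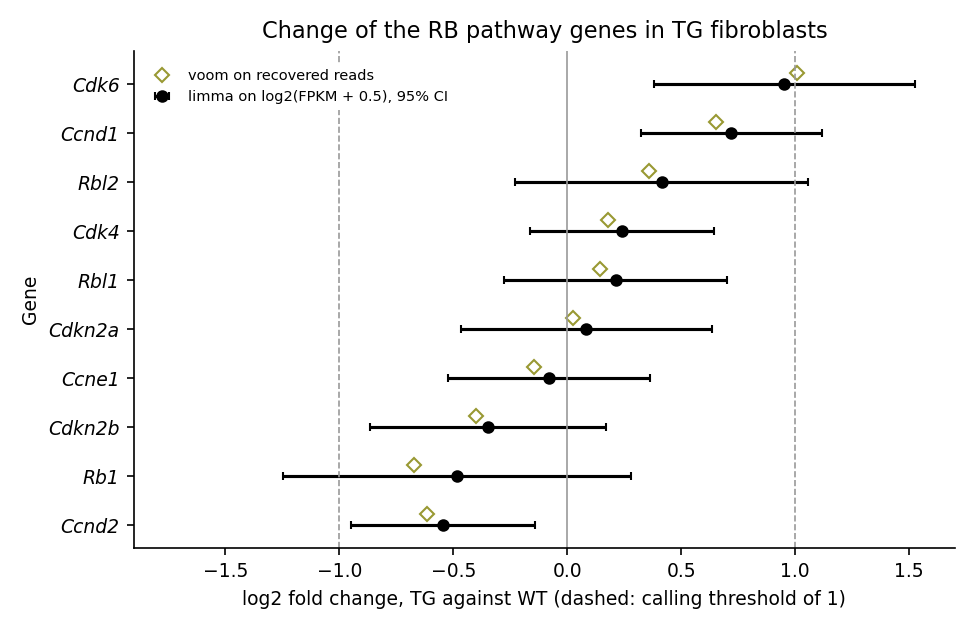
Log2 fold change of each member, TG against WT. Filled points with bars show the limma estimate on log2(FPKM + 0.5) with its 95% confidence interval, and open diamonds the voom estimate on recovered reads. The intervals of *Cdk6*, *Ccnd1* and *Ccnd2* left out 0, although their adjusted p-values were 0.0693, 0.0527 and 0.134, and the other 7 intervals held 0.

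*Cdk6*, a partner of the D-type cyclins, had the widest separation of the members. It stood at 2.29 and 2.73 FPKM in WT and at 5.69 and 4.97 FPKM in TG, from 247, 455, 772 and 625 reads. Both TG libraries were above both WT libraries, and the TG mean (5.33 ± 0.513 FPKM, SD, n = 2) was 2.12 times the WT mean (2.51 ± 0.310 FPKM, SD, n = 2). The limma log2 fold change was 0.95 (SE 0.26, 95% confidence interval 0.38 to 1.53) with an adjusted p of 0.0693, which missed the threshold. With voom it was 1.01 (SE 0.22) with an adjusted p of 0.00355, which passed, and the limma adjusted p ranged up to 0.248 over the alternative settings. *Cdk6* lies on Chr 5 (GRCm38 chr5:3341004-3531008, + strand) with 11525 exonic bases, so its low FPKM still rested on at least 247 reads per library.

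*Cdk4* encodes the other kinase that D-type cyclins activate. It stood at 540 and 471 FPKM in WT and at 585 and 608 FPKM in TG. The TG libraries were higher without overlap, but the log2 fold change of 0.24 (95% confidence interval −0.16 to 0.64) had a limma adjusted p of 0.523. *Cdk4* (chr10:127063535-127067288, + strand) shares 31.2% of its 2053 annotated exonic bases with *Tspan31* on the opposite strand. The FPKM values imply a counted length of 1420 bases, so the overlap of the counted exons may differ. The strand setting of the read counting is not given in the sources used here. *Tspan31* itself was at 189 and 186 FPKM in WT and at 148.7 and 139.7 FPKM in TG, so reads of this overlap cannot be assigned with certainty. *Cdk6* made up 0.423% and 0.577% of the *Cdk4* and *Cdk6* FPKM in WT and 0.964% and 0.810% in TG, and *Cdk4* exceeded *Cdk6* by 236-fold and 172-fold in WT and by 103-fold and 122-fold in TG. The exact two-sided permutation test of this share gave p = 0.33, the smallest value that 2 against 2 libraries allow.

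The D-type cyclins couple growth signals to CDK4 and CDK6, and none of the 3 had an adjusted p under 0.05 in the main limma fit. *Ccnd1* (cyclin D1) stood at 50.2 and 58.5 FPKM in WT and at 84.1 and 95.5 FPKM in TG. *Ccnd2* (cyclin D2) stood at 90.1 and 99.4 FPKM in WT and at 71.9 and 58.3 FPKM in TG. Neither gene overlapped between genotypes, and the gene with the higher level was *Ccnd2* in both WT libraries and *Ccnd1* in both TG libraries. For *Ccnd1* the TG mean was 65.1% higher, with a log2 fold change of 0.72 (SE 0.18, 95% confidence interval 0.32 to 1.12), a limma adjusted p of 0.0527 and a voom adjusted p of 0.0149. For *Ccnd2* the log2 fold change was −0.54 (SE 0.18, 95% confidence interval −0.95 to −0.14), with a limma adjusted p of 0.134 and a voom adjusted p of 0.0164. Neither passed the calling threshold, in limma or in voom, and both kept their direction in every alternative setting. With all 4 libraries, the limma adjusted p of *Ccnd1* ran from 0.0491 (filter at a mean of 1 FPKM) to 0.153 (no variance trend). That of *Ccnd2* ran from 0.0801 (quantile normalization) to 0.259 (no variance trend). *Ccnd1* (chr7:144929931-144939831, − strand) shares 29.4% of its exonic bases with *LTO1* on the opposite strand. *Ccnd2* (chr6:127125162-127152188, − strand) shares 5.88% of its 6330 annotated exonic bases with an antisense gene, though its FPKM values imply a counted length of 5771 bases.

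The balance of the D-type cyclins was also read within each library, where the scaling between libraries plays no part. *Ccnd1* made up 28.1% and 29.6% of the summed FPKM of *Ccnd1*, *Ccnd2* and *Ccnd3* in WT and 40.8% and 50.6% in TG. *Ccnd2* made up 50.4% and 50.3% in WT and 34.9% and 30.9% in TG. The remaining share, that of *Ccnd3* (cyclin D3), was 21.5% and 20.1% in WT and 24.2% and 18.5% in TG, which overlapped. The *Ccnd1* to *Ccnd2* ratio was 0.557 and 0.589 in WT against 1.17 and 1.64 in TG. The sum of the 3 cyclins overlapped, at 179 and 198 FPKM for WT against 206 and 189 FPKM for TG, so the genotypes were separated by the composition of the sum and not by its size. For both shares and for the ratio the exact two-sided permutation p was 0.33, the smallest possible here.

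**Figure D3:**
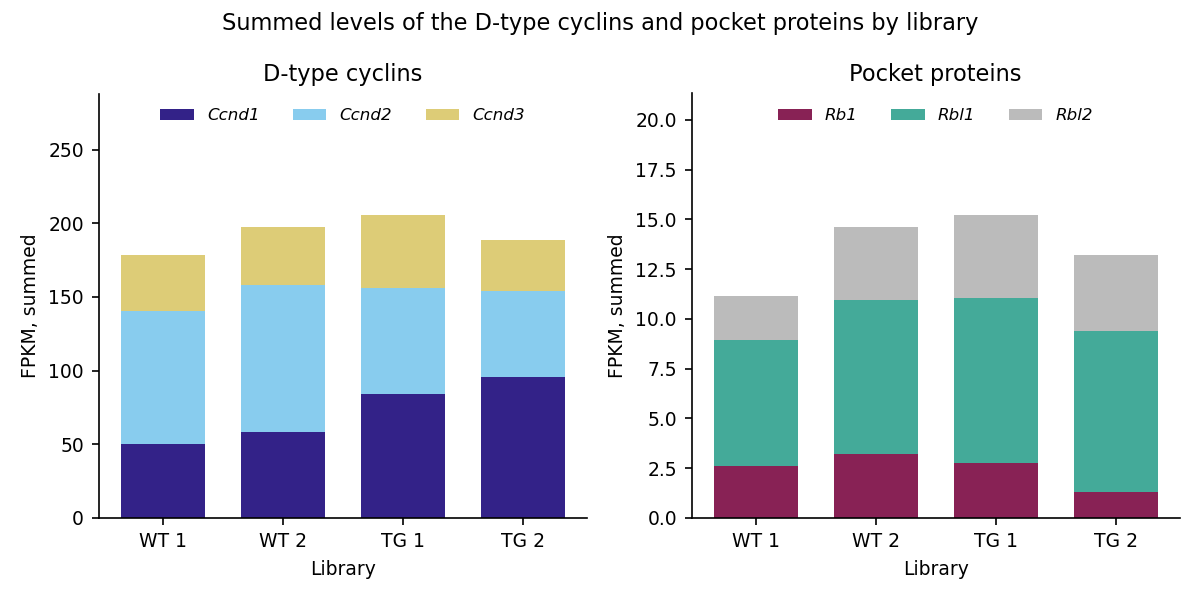
Stacked FPKM per library of the D-type cyclins and of the pocket proteins, on axes that start at 0. The D-type cyclin stacks were of like height, at 179 to 206 FPKM, with a larger *Ccnd1* part and a smaller *Ccnd2* part in TG, and the smallest *Rb1* part was that of TG 2 (9.87% of the pocket protein sum).

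*Ccne1* (cyclin E1) activates CDK2 after the D-type cyclins have acted. It stood at 28.1 and 29.9 FPKM in WT and at 31.7 and 23.6 FPKM in TG. The genotypes overlapped, and the log2 fold change of −0.08 (95% confidence interval −0.52 to 0.36, limma adjusted p 0.876) turned to 0.13 without TG 2. *Ccne1* (chr7:38097984-38107490, − strand) shares no exonic base with another gene. Its ratio to *Ccne2*, the other cyclin E gene, was 1.14 and 1.26 in WT and 0.957 and 0.876 in TG, without overlap (exact two-sided permutation p = 0.33, the smallest possible).

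The pocket proteins were expressed at low levels, with *Rbl1* as the main message. *Rb1* (chr14:73192858-73325951, − strand) stood at 2.60 and 3.18 FPKM in WT and at 2.74 and 1.30 FPKM in TG, from 111, 210, 147 and 65 reads. The low value was that of 1 library, TG 2, and the exact 95% Poisson intervals of the TG libraries, 2.31 to 3.22 and 1.01 to 1.66 FPKM, did not meet, so these libraries of 1 genotype differed by more than counting error. The log2 fold change was −0.48 (95% confidence interval −1.25 to 0.28, limma adjusted p 0.492), and it was −0.06 without TG 2. *Rbl1* (chr2:157145893-157204534, − strand) stood at 6.32 and 7.78 FPKM in WT and at 8.31 and 8.10 FPKM in TG. *Rbl2* (chr8:91070057-91123844, + strand), the pocket protein best known from resting cells, stood at 2.23 and 3.65 FPKM in WT and at 4.18 and 3.804 FPKM in TG. Both relatives were higher in TG without overlap, but neither passed the test, with log2 fold changes of 0.21 for *Rbl1* (95% confidence interval −0.28 to 0.70, limma adjusted p 0.657) and 0.41 for *Rbl2* (95% confidence interval −0.23 to 1.06, limma adjusted p 0.485). With 1 library left out, the log2 fold change ran from 0.07 to 0.35 for *Rbl1* and from 0.11 (without WT 1) to 0.71 (without WT 2) for *Rbl2*. *Rbl2* shares 16.8% of its exonic bases with genes on the opposite strand, chiefly *Aktip*.

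Within the pocket protein sum, *Rbl1* held 53.3% to 61.3% in the 4 libraries, with overlap between genotypes. *Rb1* held 23.3% and 21.8% in WT and 18.0% and 9.87% in TG. *Rbl2* held 20.03% and 24.96% in WT and 27.4% and 28.8% in TG. The shares of *Rb1* and *Rbl2* thus did not overlap, with an exact two-sided permutation p of 0.33, the smallest possible. The sum of the 3 genes ran from 11.2 to 15.2 FPKM and overlapped between genotypes.

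*Cdkn2a* and *Cdkn2b* lie side by side on Chr 4 (GRCm38 chr4:89274473-89294619 and chr4:89306289-89311032, both − strand), 11.7 kb apart. *Cdkn2a* stood at 813 and 543 FPKM in WT and at 584 and 848 FPKM in TG, from 6876 to 9263 reads. Each genotype held a high and a low library, 1.496-fold apart in WT and 1.45-fold apart in TG, and the genotypes overlapped. The log2 fold change was 0.08 (95% confidence interval −0.47 to 0.63, limma adjusted p 0.896), which turned to −0.10 under quantile normalization, to −0.21 without WT 2 and to −0.19 without TG 2. At this depth, counting error was under 3% of each value, so the libraries of each genotype differed by more than counting error. *Cdkn2b* stood at 181 and 108 FPKM in WT and at 114 and 105 FPKM in TG. Only WT 1 stood apart, and the log2 fold change of −0.35 (95% confidence interval −0.87 to 0.17, limma adjusted p 0.464) became 0.02 without that library. *Cdkn2a* exceeded *Cdkn2b* by 4.49-fold and 5.04-fold in WT and by 5.12-fold and 8.07-fold in TG. The summed FPKM of *Cdkn2a*, Arf included, and *Cdkn2b* was 1.18 to 1.83 times that of *Cdk4* and *Cdk6*, with overlap between genotypes.

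The *Cdkn2a* row pools p16 and Arf. The 2 transcripts linked to RefSeq, of 852 and 895 bases, differ in their first exon and share 575 bases, 49.1% of their 1172 exonic bases, so the matrix cannot separate them. Their start sites do differ in sequence. The 250 bases upstream of both *Cdkn2a* starts, of the *Cdkn2b* start and of the *Rbl1* start are shown because *Rbl1* and the Arf start were the member sites that held a consensus E2F site, and the others are their neighbours for comparison. The sequences are those of RefSeq on GRCm38.p6, read 5′ to 3′ on the − strand and ending at the base before the start, with the E2F site in capitals.
*Rbl1* (chr2:157204535-157204784): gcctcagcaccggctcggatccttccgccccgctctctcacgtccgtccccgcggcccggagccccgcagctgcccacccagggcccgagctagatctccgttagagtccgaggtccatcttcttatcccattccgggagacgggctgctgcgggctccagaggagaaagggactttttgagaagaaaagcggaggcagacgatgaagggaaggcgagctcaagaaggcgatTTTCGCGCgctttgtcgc
*Cdkn2a*, distal start (Arf, chr4:89294620-89294869): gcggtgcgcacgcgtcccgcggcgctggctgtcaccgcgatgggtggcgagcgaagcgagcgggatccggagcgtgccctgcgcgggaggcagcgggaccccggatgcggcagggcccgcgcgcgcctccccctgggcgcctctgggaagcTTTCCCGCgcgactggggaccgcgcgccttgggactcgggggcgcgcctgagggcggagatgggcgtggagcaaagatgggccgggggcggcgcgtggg
*Cdkn2a*, proximal start (p16, chr4:89282193-89282442): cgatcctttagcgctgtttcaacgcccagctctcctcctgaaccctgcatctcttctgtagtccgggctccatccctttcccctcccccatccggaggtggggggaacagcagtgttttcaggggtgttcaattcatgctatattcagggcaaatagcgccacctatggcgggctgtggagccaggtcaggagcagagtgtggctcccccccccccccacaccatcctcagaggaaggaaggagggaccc
*Cdkn2b* (chr4:89311033-89311282): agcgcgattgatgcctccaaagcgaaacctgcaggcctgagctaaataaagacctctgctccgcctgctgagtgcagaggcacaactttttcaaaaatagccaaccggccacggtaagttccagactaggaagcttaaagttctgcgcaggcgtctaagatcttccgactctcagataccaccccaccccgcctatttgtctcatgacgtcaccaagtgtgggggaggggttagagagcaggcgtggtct

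The motif was searched on both strands as TTTCCCGC, TTTCGCGC, TTTGCCGC or TTTGGCGC, 4 forms that cannot lie at the same position on a strand. It was found in 2 of the 7 members with an entry (*Rbl1* 18 bases and the Arf start 99 bases upstream), against 2.16% of 27025 genes and 1.86% of 32851 start sites. Of the E2F target genes with an entry, 10 of 19 (52.6%) held it. The window of the Arf start was 78.4% G + C and that of *Rbl1* 63.6%, against 60% for the p16 start and 53.6% for *Cdkn2b*, and the match is a description of these letters and not of binding.

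The other genes of the pathway were taken from 8 lists of 77 genes, of which 73 were tested. By limma, 2 of these were called higher in TG, against 0.607% of all genes, and 0 were called lower, against 0.469%. At an unadjusted p under 0.05, 15 of the 73 passed, against 19.6%. Voom also called 2 higher, against 1.08% of all genes by voom, and 0 lower, against 1.31%. At an adjusted p under 0.05 with no fold minimum, 3 were higher (*Pcna*, *Id1* and *Hmga2*) and 1 was lower (*Cdkn1a*), against 2.59% and 1.54% of all genes.

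Of the E2F target genes of S phase entry, 1 of 22 was called, against 1.08% of all tested genes. The list's median log2 fold change was 0.10, close to the 0.07 of all tested genes. The called gene was *Pcna*, the sliding clamp of DNA polymerases. It stood at 185 and 152 FPKM in WT and at 492 and 373 FPKM in TG, 2.57 times as high in the mean, with a log2 fold change of 1.35 (SE 0.20) and a limma adjusted p of 0.00562. Both TG libraries were far above both WT libraries, yet the call was lost without WT 1 (adjusted p 0.0482), without WT 2 (adjusted p 0.110) and without TG 1 (adjusted p 0.0293) by limma, while voom gave 7.31e-06. Of the 50-base stretches of *Pcna*, 31.8% also occur in the pseudogene *Pcna-ps2*, so its reads carry some uncertainty. *Tk1* (thymidine kinase) was next, at 63.6 and 45.3 FPKM in WT and at 86.4 and 96.9 FPKM in TG (log2 fold change 0.76, limma adjusted p 0.0636). The lowest log2 fold changes were those of *Dnmt1*, the maintenance DNA methyltransferase, at −0.37, and of *Mcm6*, a subunit of the replicative helicase, at −0.33, and neither passed.

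None of the 10 tested E2F and DP genes was called by limma, against 1.08% of all tested genes, and their median log2 fold change was −0.09. *E2f7*, a repressive E2F, had the lowest value (17.6 and 25.8 FPKM in WT, 15.5 and 13.9 FPKM in TG, log2 fold change −0.52, limma adjusted p 0.227), followed by *E2f2* at −0.38. *E2f1*, an activating E2F, had the highest at 0.31, beside *E2f5* at 0.31. The value of *E2f7* was −0.80 without WT 1 and −0.25 without WT 2, and that of *E2f1* was 0.54 without WT 1 and 0.08 without WT 2. The 6 genes listed for the MuvB and DREAM complexes, which regulate cell cycle genes, ran from −0.63 for *Lin52* and −0.06 for *Rbbp4* to 0.51 for *Lin54* and 0.58 for *Mybl2*. In that list too, 0 were called by limma, against 1.08% of all tested genes, and 0 by voom, against 2.39%. At an unadjusted p under 0.05, 2 of its 6 genes and 1 of the 10 E2F and DP genes passed, against 19.6% of all tested genes.

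Among the other G1 cyclins, CDK2 and their activators, 0 of 10 were called by limma or voom, against 1.08% and 2.39% of all tested genes. In this list 3 had an unadjusted p under 0.05, against 19.6% of all tested genes. The median log2 fold change was 0.20, against 0.07 over all tested genes. *Cdk7*, the catalytic subunit of the CDK-activating kinase, was highest at 0.58 (limma adjusted p 0.145), followed by *Skp2*, which marks p27 for degradation, at 0.50 (limma adjusted p 0.184). *Fbxw7*, which marks cyclin E for degradation, and *Mnat1*, another subunit of the CDK-activating kinase, were lowest at −0.33 and −0.22.

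Of the 5 other INK4 and CIP/KIP inhibitors, *Cdkn1a* alone had an adjusted p under 0.05 by limma, against 4.13% of all tested genes. It encodes p21, an inhibitor of CDK2 that p53 is known to induce. It stood at 186 and 192 FPKM in WT and at 127 and 101 FPKM in TG. The TG mean was 0.602 times the WT mean, with a log2 fold change of −0.74 (SE 0.18), a limma adjusted p of 0.0495 and a voom adjusted p of 0.00206, short of the fold that a call requires. Its limma adjusted p rose to between 0.0654 and 0.247 when any 1 library was left out. *Cdkn1b* (p27) was at −0.21, *Cdkn2c* (p18) at 0.20 and *Cdkn1c* (p57) at 0.44, and *Cdkn1c* turned to −0.15 without WT 2.

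In the p53 axis downstream of Arf, 0 of 4 genes were called by limma or voom, against 1.08% and 2.39% of all tested genes. An unadjusted p under 0.05 was reached by 1, against 19.6% of all tested genes. That gene, *Mdm2*, which targets p53 for degradation and is itself a p53 target, stood at 50.5 and 48.6 FPKM in WT and at 36.3 and 36.2 FPKM in TG (log2 fold change −0.45, limma adjusted p 0.187). *Trp53* had a log2 fold change of 0.14, *Npm1*, which binds Arf in the nucleolus, of 0.22 and *Mdm4* of 0.06. The value of *Npm1* turned to −0.17 without TG 1, and that of *Mdm4* turned negative under upper-quartile scaling, quantile normalization and voom.

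The regulators of the *Cdkn2a* and *Cdkn2b* locus held the other called gene. *Id1*, an inhibitor of basic helix-loop-helix factors known to restrain p16, stood at 12.3 and 12.5 FPKM in WT and at 35.8 and 35.6 FPKM in TG. Its libraries were nearly equal within each genotype, though they rested on 118 and 185 reads in WT and 431 and 398 reads in TG. The TG mean was 2.87 times the WT mean, and the log2 fold change was 1.49 (SE 0.18, limma adjusted p 0.00174). With voom *Id1* was at 1.45, with a larger SE of 0.27 (voom adjusted p 0.000641). Its limma adjusted p was 0.0380 without WT 1 and 0.0446 without WT 2, which ended the call. *Hmga2*, a chromatin protein also known to act on this locus, stood at 56.9 and 66.9 FPKM in WT and at 129 and 112 FPKM in TG (log2 fold change 0.96, SE 0.18, limma adjusted p 0.0164). The limma adjusted p of *Hmga2* was 0.0923 without WT 1, 0.0958 without WT 2 and 0.0870 without TG 1. *Ets1*, a transcription factor that activates p16, was at 26.1 and 30.7 FPKM in WT and at 17.9 and 17.2 FPKM in TG (log2 fold change −0.68, limma adjusted p 0.0766, voom adjusted p 0.00763). *Kdm6b*, a histone H3K27 demethylase, was at −0.56 (limma adjusted p 0.250). Over the 15 tested regulators of 16, the median log2 fold change was 0.24, against 0.07 over all tested genes. Of the 15, limma called 1, against 1.08% of all tested genes. An unadjusted p under 0.05 was reached by 4, against 19.6%.

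The neighbours of the locus on Chr 4 gave 1 tested gene of 4. *Mtap*, 93.4 kb from *Cdkn2a* and often deleted with it in tumours and cell lines, stood at 69.1 and 67.5 FPKM in WT and at 73.3 and 78.9 FPKM in TG (log2 fold change 0.15, limma adjusted p 0.677). *Ifna1* was at 0 in all libraries, *Dmrta1* had 1 read in WT 1, and *Elavl2* had 0, 1, 5 and 15 reads, all below the filter.

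**Figure D4:**
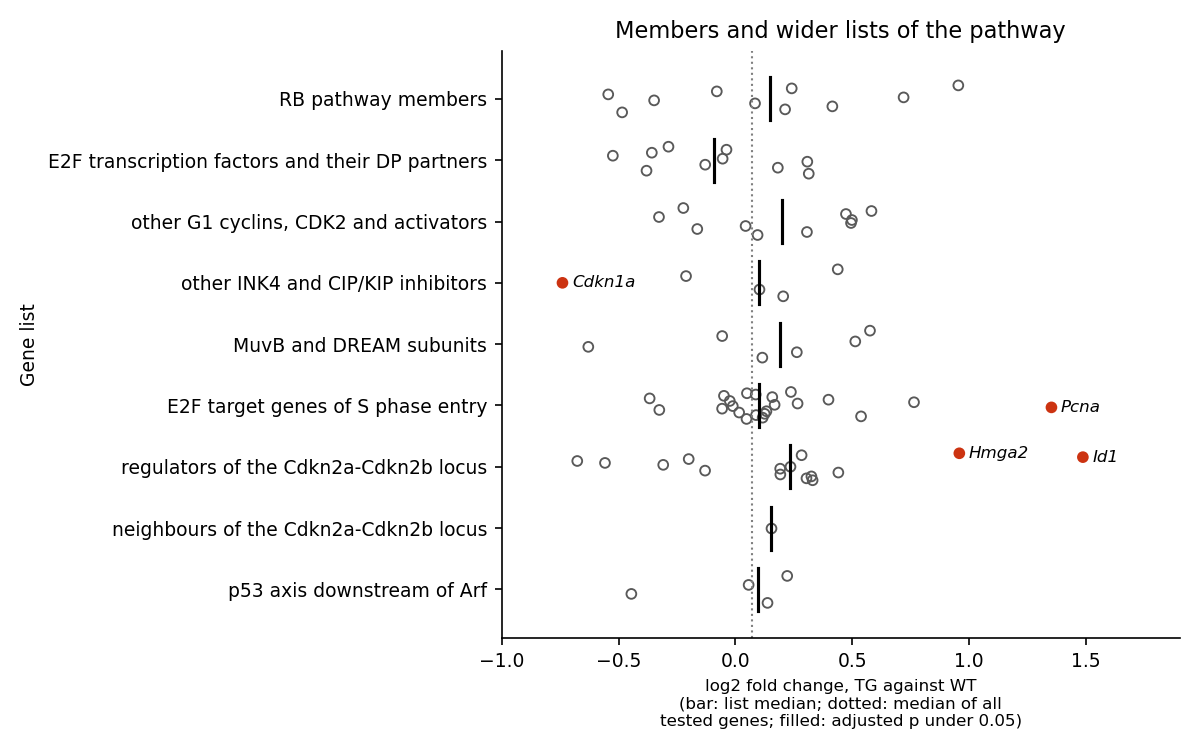
Log2 fold change, TG against WT, of the 10 members and of the tested genes of the 8 wider lists, with 1 circle per gene, a bar at the list median and a dotted line at the median of all tested genes (0.07). Filled circles mark the 4 genes with an adjusted p under 0.05 by limma, *Cdkn1a* on the left and *Hmga2*, *Pcna* and *Id1* on the right, and none of them is a member.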

How the data were processed

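RNA-seq of 2 WT and 2 TG libraries was analysed. Rsubread alignment to mm10 was followed by read counting per gene, and the authors deposited these counts as FPKM, with 1 column per library. Per the labels, DESeq served for their own test. Samples were grouped by their genotype labels.

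Genes whose mean FPKM reached 0.5 (11524) were tested on the log2(FPKM + 0.5) scale. The test was limma's moderated test with a variance trend (limma 3.58.1, R 4.3.3). Fold changes on this scale understate the change of low genes. Whole reads were recovered from the ratios between libraries for 15528 of 15530 genes above 0 (99.99%). Exon length fixed a common factor for 270 genes. The library totals were inferred from the same ratios, at the whole multiple that best matched exon lengths. The recovered reads made up 97.9% to 98.0% of these totals. Voom on these reads with median-ratio size factors was an alternative. Intervals (exact Poisson, 95%) cover counting error only and had half-widths of 2.04% to 25.1% of a member's value. Of 20 pairs of libraries of 1 genotype, 12 had intervals apart.

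The members, lists and tests were chosen with earlier results of these data known. The genes named are the members, list genes with an adjusted p under 0.05, and the 2 tested genes with the highest and the 2 with the lowest log2 fold change of each list. *Ccnd3* and *Ccne2*, as partners in shares and ratios, the untested neighbours *Ifna1*, *Dmrta1* and *Elavl2*, *Xist*, genes overlapping a member and cell type markers were named in addition, outside that rule. Spans, exons and promoters came from GENCODE and RefSeq annotations of GRCm38. Of the members, *Rb1*, *Ccnd1* and *Ccnd2* had no promoter entry. The deviations of libraries with the same replicate number were hardly correlated (−0.0276), which cannot show whether these libraries were prepared as pairs. The main fit held genotype only. Alternatives were other pseudocounts (1 and 0.1), filters (all genes above 0, or a mean of 1 FPKM), a fit with no variance trend, scaling by upper quartile or by quantiles, a replicate block, each library left out and other thresholds. The scripts were tested on simulated data.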

Additional observations from a re-analysis of the deposited data

How the results depend on the processing

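Of 130 alternative values of the members' log2 fold changes, 124 kept their direction and their side of the threshold. *Cdk6* passed with voom (1.01), which made 1 member called. *Cdkn2a* turned to −0.10 under quantile normalization. With 1 library left out, where the lone library of a genotype is assumed to vary like the other genotype, log2 fold changes ranged from −0.21 to 0.37 for *Cdkn2a*, −0.72 to 0.025 for *Cdkn2b* and −0.29 to 0.13 for *Ccne1*, TG minus WT ranged from −2.31 to 3.46 percentage points for the *Ccnd3* share and from −0.362 to 6.38 for the *Rbl1* share, and among list genes from −0.15 to 1.03 for *Cdkn1c*, −0.13 to 0.020 for *Rbbp4*, −0.27 to 0.38 for *Mdm4* and −0.17 to 0.61 for *Npm1*. *Mdm4* was at −0.0077 under upper-quartile scaling, −0.0088 under quantile normalization and −0.031 with voom. TG minus WT of the *Cdk6* share was 3.12 percentage points on reads, which are not per length, and 0.39 percentage points on FPKM.

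All tested genes called lower and higher in TG numbered 54 and 70. They numbered 1 and 0 when all genes above 0 were tested, 6 and 3 without a variance trend, 8 and 12 with a replicate block, 151 and 124 with voom, 121 and 229 at an adjusted p under 0.05 with the same fold, and 178 and 298 with no fold minimum. With 1 library left out they ranged from 1 to 47 and from 0 to 66. The 1 E2F target called (*Pcna*) became 0 with all genes above 0, no variance trend, quantile normalization or a replicate block, and 0 to 1 with 1 library left out. The 1 regulator called (*Id1*) became 0 with all genes above 0, no variance trend or a replicate block, and 0 to 1 with 1 library left out, and 2 regulators passed at an adjusted p under 0.05 with no fold minimum, as did 1 lower gene of the INK4 and CIP/KIP inhibitors. With the replicate block 0 members were called. The cause of these changes was not tested.

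Scaling moved the median log2 fold change of all genes from 0.07 to between −0.01 and 0.01. Depth limits *Rb1* most, at 65 reads in TG 2. With 2 libraries per genotype the exact permutation test cannot go below 0.33.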
